A study of Homo sapiens with 8 samples.

Results

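Integrin and laminin chains were examined in A549 cells, an established human lung adenocarcinoma line, treated with vehicle or with a pair of cytokines, TNF (tumor necrosis factor) and TGFβ (transforming growth factor beta). Members were the genes whose symbol began with ITGA, with ITGB and a digit, or with LAMA, LAMB or LAMC and a digit, and which had a probe set listed for that gene alone. Of 19775 genes on the array with such a probe set, 45 were found, of which 35 encode an integrin or laminin chain and 10 are pseudogenes, antisense or divergent transcripts and binding proteins that only share the letters. Each gene was represented by its probe set with the highest mean over all 8 arrays.

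The 4 groups held 2 arrays each. The 3D treated group was A549 spheroids, formed by hanging drop, given 10 ng/ml of TNF together with 2 ng/ml of TGFβ, in 2 rounds that lasted 48 h each, and the 3D control group was spheroids that received vehicle. The 2D treated group was A549 monolayers with the same cytokines and the 2D control group was monolayers with vehicle. All groups came from 1 cell line, and the 2 cytokines were always given together, so their separate effects cannot be told apart. The deposited design calls the arrays of a group biological replicates and the study's methods call them technical duplicates, so the p-values measure only the spread between these arrays, which may be technical. Values were log2 expression, and the comparisons used limma over 54613 probe sets with Benjamini-Hochberg adjustment, a probe set being called at an adjusted p under 0.05. Array values are from RNA of whole cultures, in which fewer cells of a type and less RNA per cell cannot be told apart.

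Integrins are cell surface receptors made of 1 alpha and 1 beta chain, and the pair decides which matrix protein is bound. The alpha 2 and alpha 1 chains pair with beta 1 to bind collagen, alpha 5 pairs with beta 1 to bind fibronectin, and the alpha V chain pairs with several beta chains to bind ligands with an RGD motif, among them the latent form of TGFβ. Laminins are basement membrane trimers of 1 alpha, 1 beta and 1 gamma chain. Laminin-332, which holds LAMB3, anchors epithelial cells through the alpha 6 beta 4 integrin of hemidesmosomes, and laminin-511 is made of LAMA5, LAMB1 and LAMC1.

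The cytokines were used to induce an epithelial-mesenchymal transition, in which cells change their contacts with the matrix, and the first comparison asks which chains differed between treated and control spheroids. In treated spheroids 5 of the 35 chains rose, ITGA2, ITGA5, ITGAV, ITGB3 and LAMB3, and 2 fell, ITGB5 and ITGAE. With ITGB1-DT higher and ITGB2-AS1 lower among the other symbols, 9 of the 45 members passed the test, beside 16.4% of all 19775 genes (5.53% higher and 10.8% lower). The median change of the 35 chains was 0.03 on the log2 scale, against 0.0 over all genes. Of the 45 members, 16 had an unadjusted p under 0.05. The share of all genes under that unadjusted limit is not given, here or for the unadjusted counts below. A fit of the 4 spheroid arrays alone, which leaves 2 residual degrees of freedom, called 1 member, LAMB3. The arrays of treated and control spheroids did not overlap for 19 of the 35 chains, beside 47.2% of all genes. In the fits below that leave out 1 array, a group that loses an array keeps a single one, and its spread is taken from the remaining groups.

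Most of the listed chains gave little signal. On these arrays the lowest value was 2.23 and the array medians lay between 2.43 and 2.50, and 18 of the 35 chains stayed below 5 on every array, at 2.23 to 4.03. In all 4 groups 7 chains were near background, below the array median on both arrays. Among the 18 chains were the chains of leukocyte and platelet integrins ITGAL, ITGAX, ITGAD, ITGA2B, ITGA4, ITGB2 and ITGB7 and the laminin chains LAMA1, LAMA2 and LAMA4. A level of 5, chosen after the values were seen, was reached on some array by the other 17 chains, whose lowest value was 4.91. Of those 17, 4 rose and 2 fell in treated spheroids, and 11 did not pass the test, beside 9.31% higher and 19.7% lower among the 10422 genes that reached this level. Their median change was 0.74, against -0.19 over those genes. ITGB6 had probe sets only together with a second gene and was not analysed here.

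The alpha chain with the largest change was ITGA2, the collagen-binding chain. ITGA2 stood at 12.35 and 11.68 on the treated 3D arrays, against 10.10 and 9.84 on the control 3D arrays, and the groups did not overlap. It rose by 2.04 on the log2 scale (SE 0.31, 4.12-fold, adjusted p = 0.0284). This call was lost in 7 of 8 fits that each left out 1 array, all but the one without 3D treated replicate 2, with an adjusted p of up to 0.124. The probe set used for ITGA2 was not its only one: a second gave a change of 2.10 (adjusted p = 0.00538).

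ITGA5, the fibronectin receptor chain, was at 10.83 and 10.94 in treated spheroids, against 9.01 and 9.16 in control spheroids. It rose by 1.80 (SE 0.18, 3.48-fold, adjusted p = 0.0108). Without 3D control replicate 1 the adjusted p was 0.0518. ITGAV, the chain that binds RGD ligands with several beta partners, was at 14.35 and 13.94, against 12.58 and 12.30 in control spheroids. It rose by 1.71 (SE 0.19, 3.26-fold, adjusted p = 0.0144), and its adjusted p was 0.0613 without 3D control replicate 2. For ITGA5 and ITGAV, too, the groups did not overlap.

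The laminin-binding alpha chains gave smaller differences. ITGA3, which pairs with beta 1 to bind laminin-332, was at 9.94 and 9.85 in treated spheroids, against 9.98 and 10.05 in control spheroids, a change of -0.12 (adjusted p = 0.611). ITGA6, the alpha chain of the hemidesmosome integrin, was at 10.14 and 9.95, against 10.32 and 10.14, a change of -0.18 (adjusted p = 0.537). ITGA1, the other collagen-binding chain, was at 8.37 and 7.81 in treated spheroids, against 7.16 and 7.08 in control spheroids. Its groups did not overlap, but the change of 0.96 did not pass the test (adjusted p = 0.0806).

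A further pair of alpha chains are known from leukocytes, where ITGAE pairs with ITGB7 and ITGAM with ITGB2. ITGAE was at 10.47 and 10.55 in treated spheroids, against 10.93 and 10.86 in control spheroids. It fell by 0.38 (SE 0.05, 1.3-fold, adjusted p = 0.0161), a call that was lost without any 1 of the 2D control or 3D control arrays, up to an adjusted p of 0.0673. ITGAM was at 6.06 and 6.35, against 5.69 and 4.91, and its change of 0.91 did not pass the test (adjusted p = 0.2). A second ITGAM probe set was near background in all 4 groups. The usual partners of ITGAE and ITGAM were near the bottom of the scale on all arrays: ITGB7 lay at 3.17 in both groups of spheroids, and ITGB2 at 2.54 in both. Of 6 leukocyte markers measured, 5 were near background in all groups. The exception was CD14, a monocyte receptor, which averaged 5.66 in treated spheroids and 8.52 in control spheroids (adjusted p = 0.0477). All cultures came from 1 cell line, and the source of the CD14, ITGAE and ITGAM signals was not tested.

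**Figure D1:**
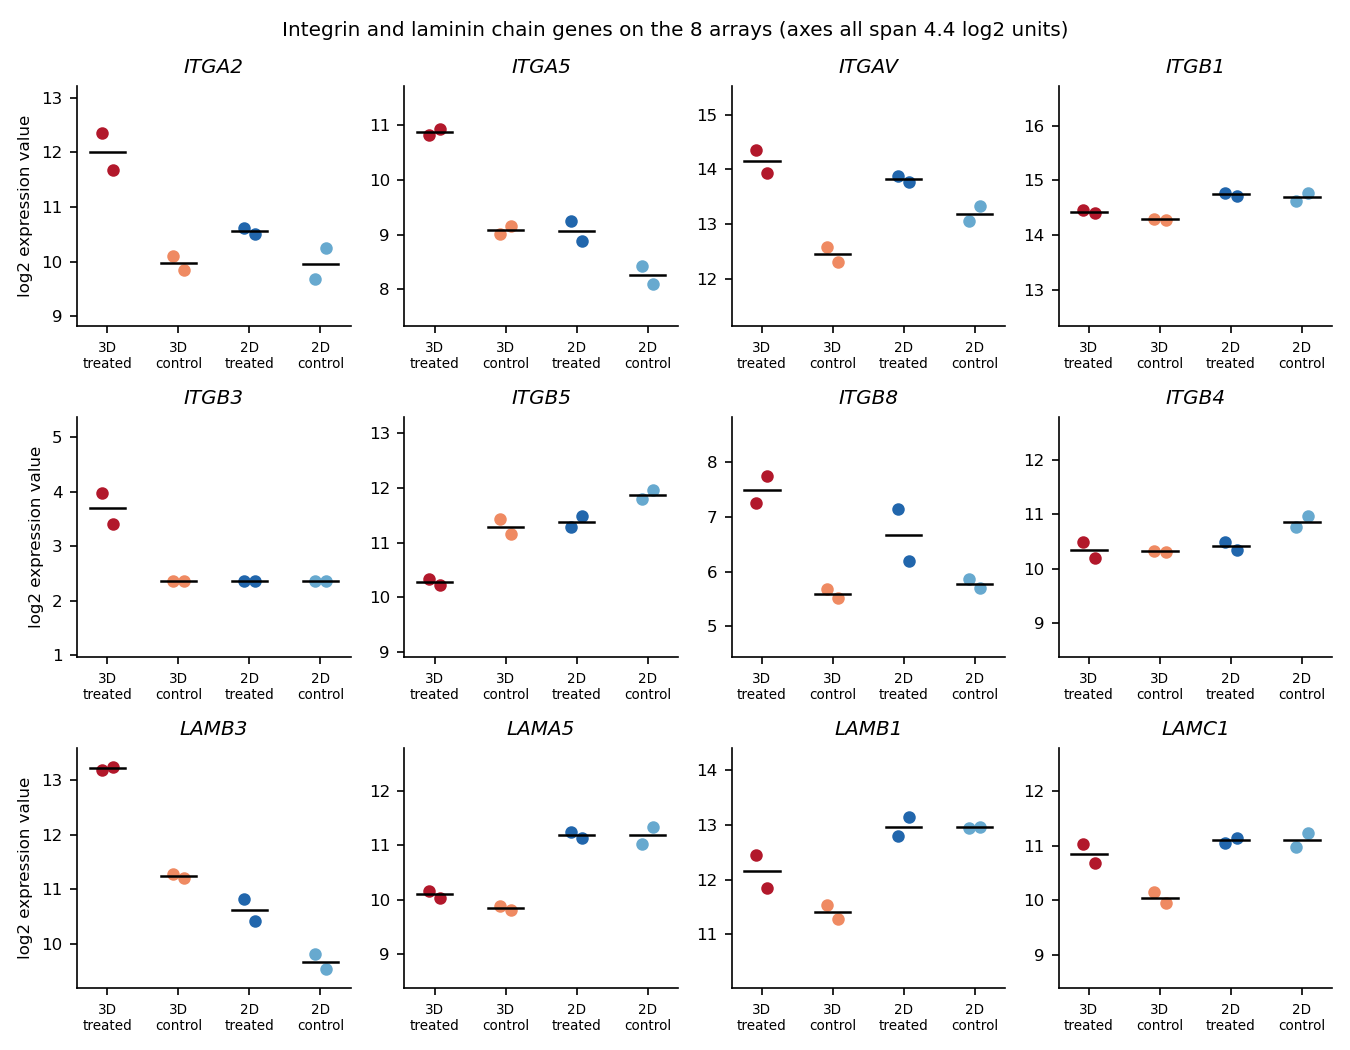
Log2 expression of 12 chains on the 8 arrays, with 3D treated, 3D control, 2D treated and 2D control from left to right. Points are arrays and bars are group means, and the axes cover equal spans. ITGA2, ITGA5, ITGAV and LAMB3 stand highest in treated spheroids, ITGB5 stands lowest there, and ITGB3 leaves the bottom of the scale only there.

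The beta chains did not move as 1 group. ITGB1, the partner of most of these alpha chains, was at 14.46 and 14.40 in treated spheroids, against 14.30 and 14.28 in control spheroids. The difference of 0.14 did not pass the test (adjusted p = 0.322), with a 95% confidence interval from -0.02 to 0.30. ITGB4, the beta chain of hemidesmosomes, was at 10.50 and 10.20, against 10.33 and 10.31, a change of 0.03 (adjusted p = 1.0).

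The beta chains that pair with alpha V differed from one another in direction. ITGB5, a vitronectin receptor chain, was at 10.33 and 10.23 in treated spheroids, against 11.44 and 11.15 in control spheroids. It fell by 1.01 (SE 0.14, 2.02-fold, adjusted p = 0.0225). That call held only without 3D control replicate 2 among the 8 fits that left out 1 array, and the adjusted p reached 0.0816. ITGB3, whose pair with alpha V binds vitronectin and fibronectin, was at 3.97 and 3.41 in treated spheroids and at 2.36 on each of the other 6 arrays. Its change was 1.33 (adjusted p = 0.0246), at least 2.38-fold when set against the control array medians, and since the 6 other arrays had an identical value, its spread came from the 2 treated 3D arrays alone. The call was lost without any 1 of the other 6 arrays, up to an adjusted p of 0.105, and the fits without 1 of the treated 3D arrays leave no spread in its values and test nothing. ITGB3 had 7 probe sets, and 3 were called higher in treated spheroids, against control spheroids and against treated monolayers. Of those not called, 1 lay at 2.53 on all arrays and another changed by 1.08 in spheroids (adjusted p = 0.49). ITGB8, whose pair with alpha V activates latent TGFβ, was at 7.25 and 7.75, against 5.68 and 5.51 in control spheroids. Its groups did not overlap, but the change of 1.91 (SE 0.37, 3.75-fold) lay at an adjusted p of 0.0503. ITGB8 had 5 probe sets, and those not used here lay at 2.23, the lowest value, on all arrays.

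Among the laminin chains, LAMB3, the beta chain of laminin-332, stood at 13.19 and 13.24 in treated spheroids, against 11.28 and 11.21 in control spheroids. It rose by 1.97 (SE 0.17, 3.93-fold, adjusted p = 0.00838). This was the one call in spheroids that held in all 8 fits without 1 array (adjusted p up to 0.0425) and in a fit of the 4 spheroid arrays alone. The chains of laminin-511 did not pass the test. LAMA5 was at 10.16 and 10.04 in treated spheroids, against 9.89 and 9.82 in control spheroids (change 0.25, adjusted p = 0.415). LAMB1 was at 12.45 and 11.85, against 11.54 and 11.27 (change 0.74, adjusted p = 0.191). LAMC1 was at 11.03 and 10.68, against 10.15 and 9.95 (change 0.81, adjusted p = 0.0558). For these 3 chains the groups did not overlap, as for 78.0% of the genes that reached a level of 5. LAMB2, a beta chain of other laminins, was at 7.04 and 7.45, against 7.60 and 7.54 (change -0.32, adjusted p = 0.479).

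A second LAMC1 probe set gave a larger change, 1.27 (adjusted p = 0.0061), with 9.28 and 9.08 in treated spheroids, against 7.99 and 7.83 in control spheroids. For LAMB1 a second probe set gave 0.76. ITGB5 had further probe sets, of which 2 were called lower (-1.47 and -0.63, adjusted p = 0.00595 and 0.00459) and 1 was not (-0.16, adjusted p = 0.214).

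To set the promoters beside these values, 300-base windows of RefSeq (build GRCh38.p14) were taken, from 250 bases before to 50 after each start, for the 29 of 45 members that had one (37 windows). The windows of LAMB3 are shown because its call held in every fit without 1 array, that of ITGA5 because it held matches to all motifs searched, and that of ITGA2 because it held none beside a change of similar size. Capitals mark matches, on either strand, to the AP-1 motif TGANTCA, the SMAD-binding element CAGACA or the NF-kB motif, by name. LAMB3 has 3 windows, of which 2 overlap, and 1 of the overlapping ones is shown with the one downstream of both. The LAMB3 windows shown are chr1:209651325-209651624 and chr1:209652280-209652579 (minus strand). The ITGA5 window is chr12:54419217-54419516 (minus strand) and the ITGA2 window chr5:52989102-52989401 (plus strand). The sequences are given 5′ to 3′.
LAMB3, downstream start: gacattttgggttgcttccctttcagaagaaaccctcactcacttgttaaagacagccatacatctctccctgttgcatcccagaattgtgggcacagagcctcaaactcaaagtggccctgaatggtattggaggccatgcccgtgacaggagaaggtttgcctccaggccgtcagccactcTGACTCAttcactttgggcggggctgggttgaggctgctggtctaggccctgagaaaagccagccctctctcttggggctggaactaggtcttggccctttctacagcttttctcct
LAMB3, middle start: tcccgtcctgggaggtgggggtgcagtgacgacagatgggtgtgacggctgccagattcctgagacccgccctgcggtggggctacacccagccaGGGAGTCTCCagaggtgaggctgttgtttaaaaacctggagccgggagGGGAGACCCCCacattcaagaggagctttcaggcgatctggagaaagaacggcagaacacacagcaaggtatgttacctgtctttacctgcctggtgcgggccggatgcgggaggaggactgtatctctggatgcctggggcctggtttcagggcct
ITGA5: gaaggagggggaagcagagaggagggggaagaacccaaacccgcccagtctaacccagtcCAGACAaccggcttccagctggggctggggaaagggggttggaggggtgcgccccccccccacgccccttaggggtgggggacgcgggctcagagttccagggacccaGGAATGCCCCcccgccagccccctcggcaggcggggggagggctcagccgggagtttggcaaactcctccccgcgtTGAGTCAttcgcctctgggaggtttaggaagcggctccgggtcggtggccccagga
ITGA2: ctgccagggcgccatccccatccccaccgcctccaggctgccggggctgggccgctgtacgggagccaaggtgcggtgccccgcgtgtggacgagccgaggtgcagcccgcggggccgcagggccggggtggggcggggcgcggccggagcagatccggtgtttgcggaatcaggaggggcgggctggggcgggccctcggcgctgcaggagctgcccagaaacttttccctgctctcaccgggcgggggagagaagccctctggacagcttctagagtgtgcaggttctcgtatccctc
The downstream LAMB3 window holds 1 AP-1 match, the middle window 3 NF-kB matches, of which 2 overlap, and the ITGA5 window 1 match to each motif, while the ITGA2 window holds none. Over the members, 3 of 37 windows (8.11%) held the AP-1 motif, beside 7.71% of 35116 windows of all genes, 6 of 37 (16.2%) held the NF-kB motif, beside 5.91%, with the same LAMB3 matches counted in both overlapping windows (5 genes), and 3 of 37 (8.11%) held the SMAD-binding element, beside 16.9%. The 5 genes with the NF-kB motif were LAMB3, ITGA5, ITGA1, ITGA10 and ITGA11, of which the last 3 were not called in treated spheroids. ITGA10 and ITGA11 stayed below 5 on every array. A match is a description of letters, and the windows of ITGAV and ITGB5 held none.

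Epithelial genes moved with the same comparison. Of 6 epithelial markers 4 fell in treated spheroids, the keratins KRT8 and KRT18 and the adhesion genes EPCAM and CDH1. Their summed level over the list was 14.95 to 15.02 in treated spheroids, 15.52 to 15.61 in control spheroids, 15.57 to 15.68 in treated monolayers and 15.88 to 15.92 in control monolayers, on the log2 scale. The part of this shift in the values of the chains was not tested. Of 4 alveolar type II markers measured, NKX2-1 and SFTPC had group means of 2.26 to 2.66, SFTPB of 4.12 to 4.16 and ABCA3 of 7.30 to 7.43, and limma called 0 in treated against control spheroids (0 at an unadjusted p under 0.05).

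**Figure D2:**
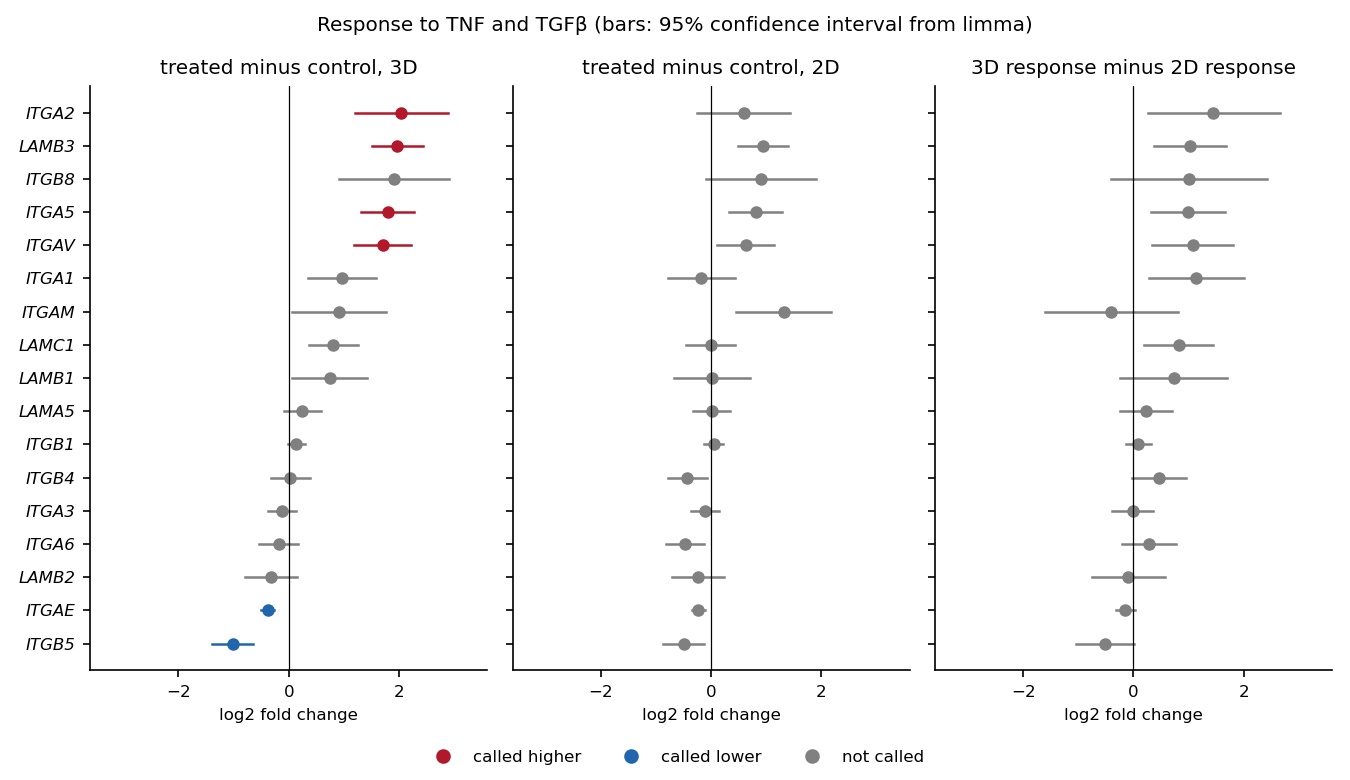
Change of the 17 chains that reached 5 on some array, as log2 fold change with 95% confidence intervals from limma (2 arrays a group): treated minus control in spheroids, treated minus control in monolayers, and the spheroid response minus the monolayer response. Red points are called higher and blue points lower, and ITGA2, LAMB3, ITGA5 and ITGAV are the ones called higher in spheroids.

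In monolayers, 0 of the 45 members passed the limma test, beside 0.197% of all genes called (0.121% higher and 0.0759% lower). Without adjustment, 9 members had a p under 0.05. With an intensity trend in the same test the number called was also 0. LAMB3 was at 10.82 and 10.41 in treated monolayers, against 9.81 and 9.53 in control monolayers, a change of 0.95 (adjusted p = 0.219). ITGA5 was at 9.25 and 8.89, against 8.42 and 8.10, a change of 0.81 (adjusted p = 0.294). ITGAV was at 13.87 and 13.77, against 13.06 and 13.32 (change 0.63, adjusted p = 0.479), and ITGA2 at 10.61 and 10.50, against 9.68 and 10.24 (change 0.59, adjusted p = 0.917). The groups of these 4 chains did not overlap, as for 13 of the 35 chains in monolayers, beside 29.3% of all genes and 49.3% of those that reached a level of 5. ITGB8 was at 7.15 and 6.20, against 5.86 and 5.70, a change of 0.90 (adjusted p = 0.718). ITGAM was at 7.65 and 8.03, against 6.61 and 6.43 (change 1.32, adjusted p = 0.342). ITGB8 and ITGAM are among those 13 chains. ITGB5 was at 11.28 and 11.49 in treated monolayers, against 11.79 and 11.97 in control monolayers, a change of -0.49 (adjusted p = 0.434), in the same direction as in spheroids. ITGB3 stayed at 2.36 on all monolayer arrays. ITGA6 and ITGB4, which form the hemidesmosome integrin, had changes of -0.47 (adjusted p = 0.409) and -0.43 (adjusted p = 0.472). The fitted changes of LAMA5, LAMB1 and LAMC1 were 0.01, 0.02 and -0.01 in monolayers, and ITGA1 was at 8.32 and 7.97 in treated monolayers, against 8.37 and 8.27 in control monolayers (change -0.18, adjusted p = 1.0).

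Whether the response differed between culture types was tested directly, as the spheroid response minus the monolayer response. Of the 45 members, 0 passed, beside 3.26% of all genes called (1.32% higher and 1.94% lower). Without adjustment, 10 members had a p under 0.05. The difference was 1.45 for ITGA2 (95% interval 0.26 to 2.65, adjusted p = 0.224), 1.33 for ITGB3 (0.60 to 2.05, adjusted p = 0.105) and 1.03 for LAMB3 (0.38 to 1.68, adjusted p = 0.139). It was 1.08 for ITGAV (0.34 to 1.81, adjusted p = 0.158) and 0.99 for ITGA5 (0.32 to 1.66, adjusted p = 0.157). It was 1.14 for ITGA1 (adjusted p = 0.194), 1.01 for ITGB8 (adjusted p = 0.546) and 0.82 for LAMC1 (adjusted p = 0.196). For ITGB5 it was -0.52, with an interval from -1.05 to 0.01 (adjusted p = 0.334). On these probe sets, a call in spheroids and none in monolayers therefore does not show that the 2 responses differ. Further probe sets of ITGA2, ITGB3, LAMC1 and ITGB5 did pass this test and are given below. They were 4 of the 108 probe sets of the members (3.7%), beside 2.32% of all probe sets.

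Culture type was then compared within each treatment, which reuses the same arrays. In control cultures, 3 members were higher in spheroids and 4 were lower than in monolayers (15.6% of 45, beside 10.7% of all genes, 5.77% higher and 4.9% lower). All 3 chains of laminin-511 were lower in control spheroids. LAMA5 was at 9.89 and 9.82, against 11.02 and 11.34 in control monolayers, and it fell by 1.32 (SE 0.12, 2.5-fold, adjusted p = 0.0163). LAMB1 was at 11.54 and 11.27, against 12.95 and 12.96, and it fell by 1.55 (SE 0.25, 2.93-fold, adjusted p = 0.0431). LAMC1 was at 10.15 and 9.95, against 10.98 and 11.23, and it fell by 1.06 (SE 0.16, 2.08-fold, adjusted p = 0.0393). ITGB1 fell by 0.41 (adjusted p = 0.036). Of its 7 probe sets 2 were called lower, and a further bright one was not (-0.47, adjusted p = 0.0873). ITGB5 was not called (-0.59, adjusted p = 0.0971), though 2 of its 4 probe sets were called lower. LAMB3 went the other way, at 11.28 and 11.21 in control spheroids, against 9.81 and 9.53 in control monolayers, and it rose by 1.57 (2.98-fold, adjusted p = 0.0208). ITGAE was also higher, by 0.37 (adjusted p = 0.0257), and so was ITGB2-AS1, by 0.69 (adjusted p = 0.0182). ITGA1, at 7.16 and 7.08 in control spheroids against 8.37 and 8.27 in control monolayers, had a difference of -1.20 that did not pass the test (adjusted p = 0.0595).

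The calls in control cultures rested on few arrays, and a limma fit of the 4 control arrays alone called 0 members (16 at an unadjusted p under 0.05). Of the 8 fits without 1 array, the LAMC1 call held in 0 (adjusted p up to 0.149), the LAMB1 call only in those without 1 treated 3D array (up to 0.165) and the ITGB1 call only in that without 2D control replicate 1 (up to 0.14). The ITGAE call held only without 1 treated 2D array (up to 0.0981), and the LAMB3 call only without 1 treated 2D array or without 2D control replicate 1 (up to 0.0758). LAMA5 lost its call without either control 3D array (up to 0.0621), and ITGB2-AS1 without either of these or 2D control replicate 2 (up to 0.0631).

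In treated cultures, 6 members were higher in spheroids and 4 were lower (22.2%, beside 23.6% of all genes, 9.06% higher and 14.5% lower). LAMB3 was 6.07-fold higher in treated spheroids, by 2.60 (adjusted p = 0.00372), and ITGA5 was 3.51-fold higher, by 1.81 (adjusted p = 0.00741). ITGA2 was higher by 1.46 (2.76-fold, adjusted p = 0.0482), ITGB3 by 1.33 (adjusted p = 0.0175, at least 2.38-fold) and ITGAE by 0.22 (adjusted p = 0.0457). ITGAM fell by 1.63 (3.1-fold, adjusted p = 0.0373) and ITGB5 by 1.11 (2.15-fold, adjusted p = 0.0129). LAMA5 fell by 1.09 (2.13-fold, adjusted p = 0.01) and ITGB1 by 0.32 (adjusted p = 0.0362). The further bright ITGB1 probe set was not called in treated cultures either (-0.38, adjusted p = 0.0951). The second ITGAM probe set, near background in all groups, differed by 0.1 (adjusted p = 0.506). LAMB1 and LAMC1 were -0.83 (adjusted p = 0.122) and -0.24 (adjusted p = 0.506), and the second LAMC1 probe set had the opposite sign, 0.60 (adjusted p = 0.0204).

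ITGB5 was at 10.33 and 10.23 in treated spheroids, against 11.28 and 11.49 in treated monolayers, and LAMA5 at 10.16 and 10.04, against 11.25 and 11.14. The lower groups did not overlap the higher ones in either chain. The LAMB3, ITGA5 and ITGB1-DT calls in treated cultures held in all 8 fits without 1 array, while a limma fit of the 4 treated arrays alone called 0 members (10 at an unadjusted p under 0.05). LAMA5 lost its call without 2D treated replicate 1 (adjusted p = 0.0506), and ITGB5 without 2D treated replicate 2 or 3D treated replicate 2 (up to 0.0607). ITGA2 held its call only without 3D treated replicate 2 (up to 0.19), ITGAM only without 1 control 3D array (up to 0.158), ITGB1 only without 1 control 2D array (up to 0.146) and ITGAE in 0 of the 8 fits (up to 0.153). ITGB3 lost its call without any 1 of the other 6 arrays (up to 0.0841), and the fits without a treated 3D array leave no spread in its values and test nothing.

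**Figure D3:**
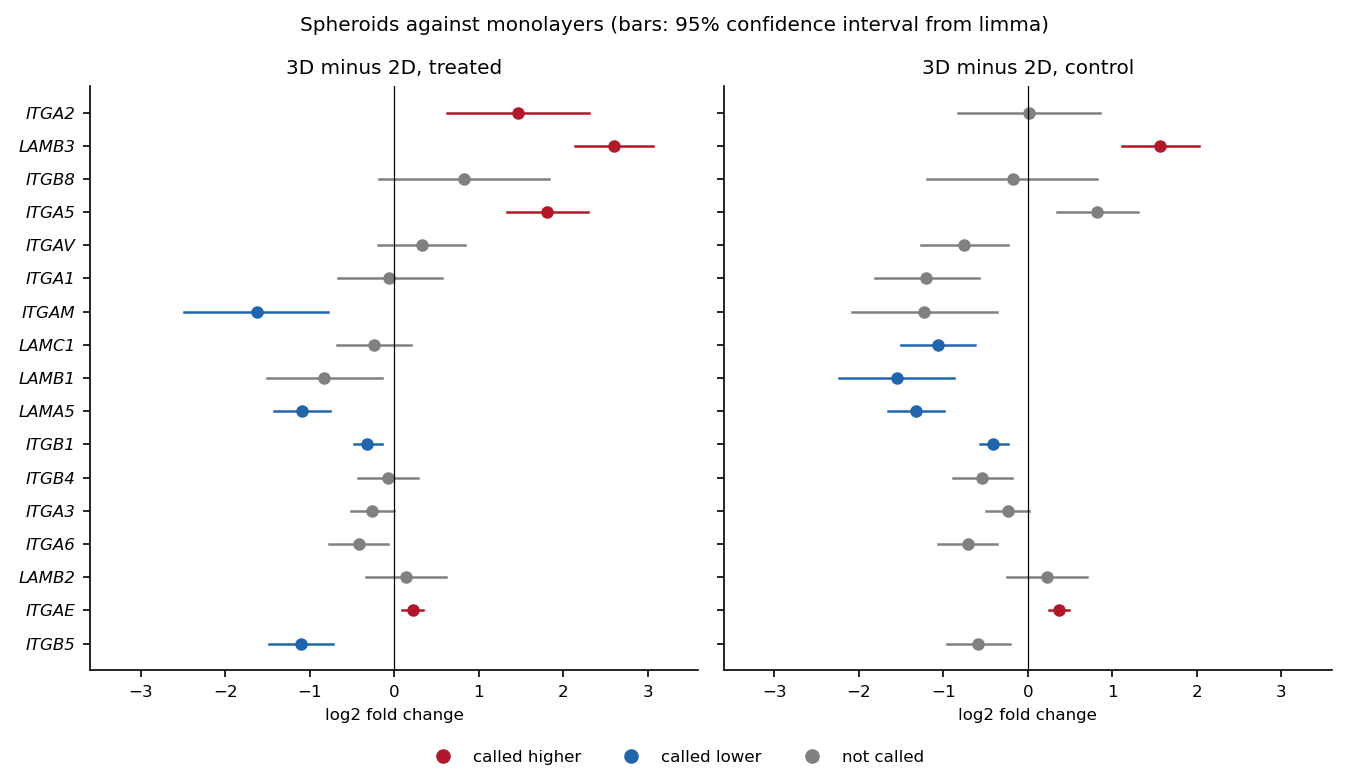
Spheroids minus monolayers for the same 17 chains, as log2 fold change with 95% confidence intervals from limma, in treated cultures on the left and control cultures on the right. LAMB3 is higher in both panels, and LAMA5 and ITGB1 are lower in both.

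Of the 10 symbols that encode no integrin or laminin chain, 2 were called in spheroids and 8 were not. ITGB1-DT, the divergent transcript beside ITGB1, was at 11.15 and 10.69 in treated spheroids, against 9.71 and 9.62 in control spheroids. It rose by 1.26 (2.39-fold, adjusted p = 0.0227), a call that held only in the fits without 1 treated 3D array. ITGB2-AS1 was at 6.06 and 6.18, against 6.82 and 6.73, and it fell by 0.65 (1.57-fold, adjusted p = 0.0124), with an adjusted p of 0.0551 without 3D control replicate 1. ITGB1-DT was higher in treated spheroids than in treated monolayers too, by 1.75 (adjusted p = 0.00781).

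Genes of the surrounding matrix and of integrin function were described as lists, with the counts called in treated against control spheroids. Of 13 basement membrane genes 5 rose and 1 fell, with a median of -0.09, among them the collagen IV chains COL4A1 (3.00, adjusted p = 0.0113) and COL4A2 (2.89, adjusted p = 0.0109) and the proteoglycan SDC4 (3.00, adjusted p = 0.00366). Of 13 other integrin ligands 3 rose and 1 fell, with a median of 0.32: EDIL3 (5.32, adjusted p = 0.00687), TNC (5.01, adjusted p = 0.0102) and TGFBI (1.53, adjusted p = 0.0115) rose, while fibronectin, FN1, had a change of 0.08 (adjusted p = 0.944). Of 22 integrin adaptors 5 rose and 1 fell, with a median of 0.18, led by the kindlins FERMT1 (2.39, adjusted p = 0.0261) and FERMT2 (1.66, adjusted p = 0.0025) and zyxin, ZYX (0.91, adjusted p = 0.0126).

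Of 7 hemidesmosome genes 2 rose, COL7A1 (2.99, adjusted p = 0.0115), the anchoring fibril collagen, and the tetraspanin CD151 (0.68, adjusted p = 0.0462), with a median of 0.0. Of 9 surface partners of integrins 3 rose and 1 fell, with a median of 0.19: CD82 (2.05, adjusted p = 0.0129), PLAUR (1.66, adjusted p = 0.012) and CD47 (1.24, adjusted p = 0.00847) rose. Of 7 integrin trafficking genes 2 fell, SNX17 (-0.62, adjusted p = 0.0333) and RAB11FIP1 (-0.53, adjusted p = 0.0276), with a median of 0.0. Of 7 laminin processing genes 3 rose, PLAT (3.69, adjusted p = 0.037), MMP2 (2.83, adjusted p = 0.0273) and BMP1 (1.48, adjusted p = 0.0112), with a median of 0.09. Each list is read beside 5.53% of all genes called higher, 10.8% called lower and a median of 0.0. In monolayers limma called 0 of the 78 genes of these lists, and 15 had an unadjusted p under 0.05.

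**Figure D4:**
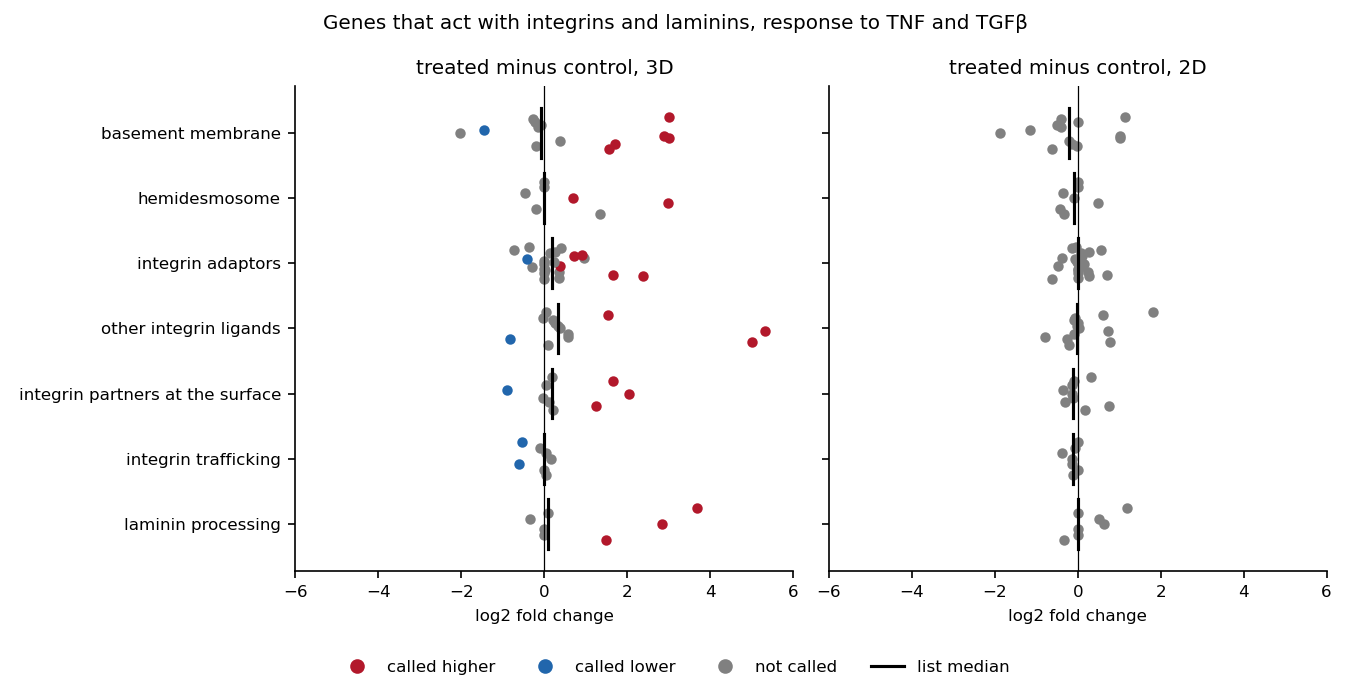
Log2 fold change, treated minus control, of the genes in 7 lists related to the chains, in spheroids on the left and in monolayers on the right. Points are genes, red if called higher and blue if called lower, and the black bars are list medians. COL4A1, COL4A2, SDC4, EDIL3 and TNC lie far to the right in spheroids, and 0 genes are called in monolayers.

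Of the 19 neighbour genes named, SDC4, FERMT2, EDIL3, CD82 and CD47 kept their call in all 8 fits without 1 array. The number of these genes that lost the call was 11 and 12 without 3D control replicate 1 and replicate 2, 3 and 2 without 3D treated replicate 1 and replicate 2, and 4 without each of the monolayer arrays.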

How the data were processed

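RNA of A549 cultures was hybridised by the study to 8 Affymetrix U133 plus 2.0 arrays, 2 for each of 4 groups taken from the sample titles. The authors deposited log2 expression values made with GCRMA, which corrects background from probe sequence, normalizes by quantiles and summarises probes. The submitters' processing notes name GCRMA, without a version, and limma 3.6.9. Because GCRMA compresses dim probes, 15259 probe sets had 1 identical value on all arrays and small changes near the floor carry little information. The 8 arrays are few, which limits precision, and arrays give no read depth.

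From these values, 62 control probe sets were left out and 54613 probe sets were fitted in limma 3.58.1 (R 4.3.3) with a mean for each group, moderated variances and Benjamini-Hochberg adjustment at 0.05 (4 residual and 0.35 prior degrees of freedom). Of the probe sets, 41091 were listed with 1 gene, 1801 with several and 11721 were unnamed here. Comparisons were treated minus control in spheroids and in monolayers, the difference of both, and spheroids minus monolayers at each treatment. All share arrays.

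Alternatives were the probe set of each gene with the largest change in spheroids, a replicate block, quantile normalization of the deposited values, removal of dim probe sets, an intensity trend in the variance, array medians set to 0, adjustment over 1 probe set per gene, a fit of only the 4 arrays compared, a fold of at least 2, and leaving out each array, where a group left with 1 array is assumed to vary like the others. Data were simulated from these arrays for the spheroid comparison (54613 probe sets, 5 draws). The test found 12.6% of changes of 1 and 51.6% of changes of 2 on the log2 scale, with 28 false calls in all. Changes were planted only in probe sets with a mean above 5, 500 of each size over the draws, and other group differences were removed. On the arrays themselves 16.4% of all genes were called, which alters the adjustment, so these shares do not give the sensitivity of the reported test.

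Members and lists were chosen with earlier results of these data known. Named were all members called in a treatment comparison, LAMB3, the chains of laminin-511, the hemidesmosome integrin and the main collagen, laminin, fibronectin and RGD receptors, up to 6 members in each direction called only by culture, and up to 3 called genes of each neighbouring list. Replicate numbers were not used to pair the arrays in the main fit. Over 27306 brighter probe sets the correlation of deviations between same-numbered arrays was -0.01 to 0.28. It was highest between 2D control and 2D treated, so this check does not show that the arrays were unpaired. Promoters came from RefSeq. Figures were drawn with Python 3.11.15 and matplotlib 3.10.9.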

Additional observations from a re-analysis of the deposited data

Results flagged for a closer look

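The probe set with the highest mean was used for each gene, and on it no member passed the test of the difference between the spheroid and the monolayer response. Over all 108 probe sets of the members, 4 passed that limma test (3.7%), beside 2.32% of all 54613 probe sets and 3.26% of all genes. A second ITGA2 probe set was at 11.25 and 10.94 in treated spheroids, against 9.02 and 8.97 in control spheroids, and at 8.98 and 9.13 in treated monolayers, against 8.52 and 8.76 in control monolayers, and its response was larger in spheroids by 1.68 on the log2 scale (adjusted p = 0.0425). A second ITGB3 probe set was at 3.95 and 3.67 in treated spheroids and at 2.23, the floor of the scale, on the other 6 arrays, so that its spread came from 2 arrays alone. Its fitted difference of 1.58 (adjusted p = 0.0221) is set against a probe set near background, and the change in spheroids was at least 2.6-fold. A second LAMC1 probe set differed by 1.27 (adjusted p = 0.0323), with a spheroid change of 1.27 and a monolayer change of -0.00. A further ITGB5 probe set was at 7.12 and 7.07 in treated spheroids, against 7.74 and 7.70 in control spheroids, and its difference was -0.58 (adjusted p = 0.0276).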

How the results depend on the processing

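The 9 members called in treated against control spheroids numbered 5 with the replicate block and 1 in a fit of the 4 arrays alone, and 4 to 10 without 1 array. The 0 members called for the difference of both responses numbered 3 on the probe set with the largest change in spheroids, 1 with array medians subtracted, 4 with dim probe sets filtered out, 1 with adjustment over 1 probe set per gene, and 1 to 3 without 1 array. In monolayers the count was 0 to 3 without 1 array. The 7 members called in control spheroids against control monolayers numbered 18 with dim probe sets filtered out (31 members tested), 2 with the replicate block, 0 in the fit of 4 arrays and 4 at a fold of at least 2, and 1 to 5 without 1 array. The 10 called in treated cultures numbered 6 with the block, 0 in the fit of 4 arrays, and 5 to 7 without 1 array. LAMC1 in treated spheroids against treated monolayers had the opposite sign, 0.60, on the probe set with the largest change in spheroids. The filter tests fewer probe sets and the fit of 4 arrays fewer arrays. The other causes were not tested. Other counts lay within 1.5 times those reported. The difference of both responses needs all 8 arrays, so it has no fit of 4 arrays.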
